A study of Mus musculus with 6 samples.

Results

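The genes of the mouse mitochondrial genome were taken as all rows whose chromosome is MT in the count tables of 6 tibia libraries. They number 37 of 56748 genes: 13 protein genes, 2 ribosomal RNA (rRNA) genes and 22 transfer RNA (tRNA) genes. Each library was made from tibia of 12-week-old female mice, with 3 samples labelled Col1a1+/- and 3 labelled wild type (WT). The Col1a1+/- mice are heterozygous for the gene of the alpha 1 chain of type I collagen, and the series title calls them a model for osteogenesis imperfecta type I, in which bones break easily; the labels do not describe the allele. Marrow had been flushed from the bones before freezing, and RNA was selected by its poly-A tail. Nothing in the labels ties a sample to an animal of its own, and p-values therefore measure the spread between these samples only, which may be technical.

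Mitochondria keep a small circular genome of their own, present in many copies per cell. It is read from both strands as long precursor RNAs, and in the usual account the tRNAs lie between the other genes like punctuation and are cut out to free the messenger RNAs (mRNAs) and rRNAs. The 13 proteins are core subunits of respiratory complexes I, III and IV and of the ATP synthase, complex V, and the nuclear genome supplies the remaining subunits and all of complex II. Mitochondrial mRNAs receive short poly-A tails inside the organelle, and striated muscle is among the tissues richest in them.

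The gene rows are packed closely in the annotation, which bears on what a read can be counted for. Neighbouring rows overlapped at 9 places, and the largest gap between neighbours was 32 bases. The longest overlap joins mt-Atp8 and mt-Atp6, both subunits of ATP synthase. It spans 43 bases, MT:7927-7969 on GRCm39, plus strand, and is shown with the start codon of mt-Atp6 and the stop codon of mt-Atp8 in capitals.
mt-Atp8 and mt-Atp6 overlap: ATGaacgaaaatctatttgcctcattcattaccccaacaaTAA
Reads that overlapped several genes were left out of the counts, per the file headers, so a read over these bases counted for neither gene.

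The ends of the protein genes show the role of the poly-A tail in these mRNAs. In 3 of 13 protein genes the annotated length is 1 base over a whole number of codons, and the gene ends in the first base of a stop codon, which in mitochondria is completed by the tail. The last 18 bases of these 3 genes follow, with mt-Co1, which encodes its whole stop codon, for comparison; the encoded part of the stop codon is in capitals.
mt-Co1, MT:6855-6872: tatgtaaaagtaaaaTAA
mt-Co3, MT:9373-9390: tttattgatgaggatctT
mt-Nd4, MT:11527-11544: ttacaggcctgacaataT
mt-Cytb, MT:15271-15288: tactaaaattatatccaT
All 4 lie on the plus strand of GRCm39, and the letters were read from GENCODE M21 transcripts, whose mitochondrial coordinates matched those of the count tables for 37 of 37 genes.

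Parts of the mitochondrial genome also have copies in the nucleus, and a copy on chromosome 1 is annotated as a row of unprocessed pseudogenes. Compared base by base with the annotated pseudogene transcripts, mt-Co2 matched Gm28661 at 681 of 681 bases, mt-Atp6 matched Gm10925 at 678 of 678, mt-Co3 matched Gm28437 at 783 of 783 and mt-Nd4l matched Gm10222 at 294 of 294. The first 876 bases of mt-Nd4 matched Gm28439 at every base. mt-Nd3 matched Gm28438 at 344 of 345 bases, with 1 difference, T3C, counted from the first base of the gene with the mitochondrial base given first. The first 40 bases of mt-Nd3 and mt-Co2 are shown beside those of their chromosome 1 copies, since these pairs are what an aligner has to tell apart; the differing base is in capitals.
mt-Nd3, MT:9459-9498: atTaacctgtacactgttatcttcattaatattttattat
Gm28438: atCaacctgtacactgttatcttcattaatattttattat
mt-Co2, MT:7013-7052: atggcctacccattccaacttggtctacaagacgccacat
Gm28661: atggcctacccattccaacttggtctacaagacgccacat
On GRCm39 these pseudogenes lie on the minus strand of chromosome 1, Gm28438 between 24651856 and 24652200 and Gm28661 between 24653966 and 24654646.

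The libraries held 26.8 to 32.4 M counted reads. Col1a1 itself does not separate the labels, at 61149, 52880 and 59598 CPM (counts-per-million after TMM scaling) in Col1a1+/- and 36810, 61347 and 54799 CPM in WT, which overlap. The shares of several marker lists differed between the genotypes, while those of others overlapped. The 24 skeletal muscle markers took 1.95, 3.59 and 1.79% of counts in Col1a1+/- and 5.74, 5.79 and 7.29% in WT. All 24 log2 fold changes were below 0, and edgeR called 9 lower, where 2.91% of all genes were called lower. DESeq2 called 22 lower (background 7.92%) and limma-voom 17 (664 of 18514 genes lower). Without WT replicate 1 edgeR called 6 lower (background 6.15%), and without Col1a1+/- replicate 2 it called 18 (762 of 19222 genes lower). It called 0 without Col1a1+/- replicate 1, Col1a1+/- replicate 3, WT replicate 2 or WT replicate 3. In that order, those fits called 0, 44, 8 and 0 genes in all. Osteoblast markers, Col1a1 among them, took 13.5 to 15.4% in Col1a1+/- and 7.81 to 11.1% in WT. Chondrocyte markers took 0.315 to 0.459% in Col1a1+/- and 0.126 to 0.199% in WT. Osteoclast markers took 0.731 to 0.923% in Col1a1+/- and 0.491 to 0.601% in WT, also without overlap. By edgeR 4 of 10 osteoblast, 5 of 8 chondrocyte and 0 of 8 osteoclast markers were called higher, where 265 of 18514 genes were. With 1 library left out, the calls ran from 0 to 5 for osteoblast, 0 to 4 for chondrocyte and 0 to 1 for osteoclast markers. The shares of osteocyte, erythroid, adipocyte and endothelial markers overlapped between the groups. WT replicate 1 stood apart with 0.615% of its counts on neutrophil markers, against 0.103 to 0.171% in the other libraries. Of the 4 brown fat markers, Ucp1 was at 0 in all 6 libraries, Elovl3 held 2 to 8 counts in each and Cidea lay below 2 CPM. Cox8b, which striated muscle also expresses, stood at 61.6, 110 and 29.9 CPM in Col1a1+/- and 81.2, 206 and 271 CPM in WT.

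Mitochondrial genes took a smaller part of the reads in every Col1a1+/- library than in any WT library. The 37 genes held 6.19, 5.84 and 3.87% of all counts in Col1a1+/- replicates 1, 2 and 3, against 6.98, 9.30 and 9.27% in WT replicates 1, 2 and 3. The groups did not overlap, Col1a1+/- replicate 3 was the lowest library and WT replicate 1 was the lowest of its group. The means were 5.30 ± 1.25% in Col1a1+/- and 8.52 ± 1.33% in WT (SD, n = 3 each), a difference of -3.21 percentage points and a ratio of 0.623. By an exact two-sided permutation test p was 0.1, the smallest that 3 libraries against 3 can give. The 95% binomial interval of each library's share, by Wilson's method, was at most 0.0209 percentage points wide, which covers counting error only. It takes each read as independent, although both mates of a fragment were counted, and may be too narrow even for that error. Without WT replicate 1 the difference was -3.98 percentage points, and without Col1a1+/- replicate 3 it was -2.50. In whole tibia, fewer cells rich in mitochondria and less mitochondrial RNA per cell cannot be told apart.

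**Figure D1:**
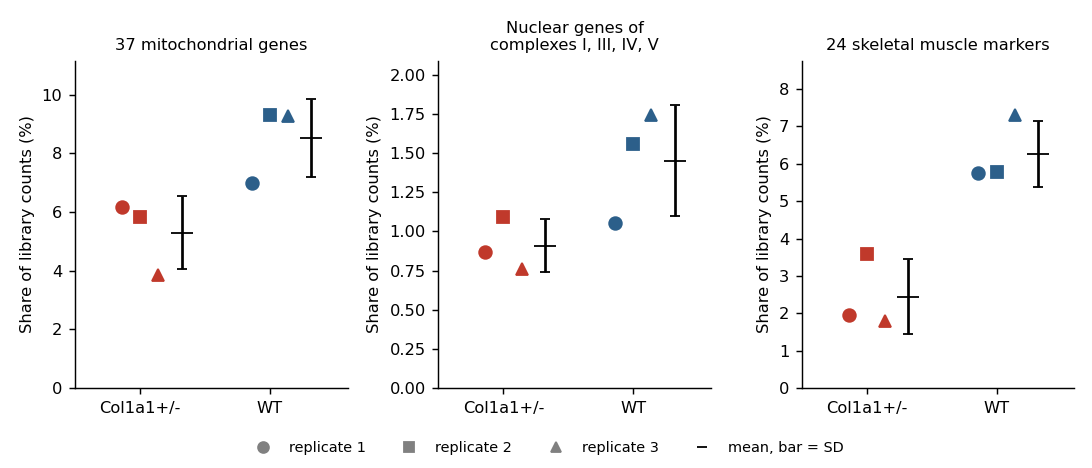
Share of each library's counts, in percent, on the 37 mitochondrial genes (left), on the nuclear genes of complexes I, III, IV and V (middle) and on 24 skeletal muscle markers (right), with Col1a1+/- libraries in red and WT in blue, symbols for replicates, and a black bar for mean ± SD (n = 3). The mitochondrial share is 3.87 to 6.19% in Col1a1+/- and 6.98 to 9.30% in WT, and the muscle share is 1.79 to 3.59% in Col1a1+/- and 5.74 to 7.29% in WT.

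The split of the mitochondrial reads between protein, rRNA and tRNA genes was much the same in every library. The 13 protein genes held 94.3 to 95.5% of them, the 2 rRNA genes 4.34 to 5.59% and the 22 tRNA genes 0.0910 to 0.107%. Per 1000 mitochondrial mRNA counts there were 51.6, 45.5 and 59.2 rRNA counts in Col1a1+/- and 52.5, 45.6 and 51.6 in WT. The difference of 2.22 was within the spread of the groups (exact permutation p = 0.8), and without Col1a1+/- replicate 3 it changed sign, to -1.35. The same measure for tRNA was 1.06, 1.12 and 1.14 in Col1a1+/- and 1.04, 1.06 and 0.958 in WT, with overlapping groups (exact permutation p = 0.2).

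Among the mRNAs, cytochrome c oxidase (complex IV) and complex I took similar parts of the counts. Complex IV, from mt-Co1, mt-Co2 and mt-Co3, took 40.1, 40.2 and 39.6% in Col1a1+/- and 39.3, 40.1 and 39.0% in WT. Complex I, from 7 mt-Nd genes, took 39.7, 39.4 and 40.3% in Col1a1+/- and 41.1, 40.1 and 40.7% in WT, also with overlap. Complex III, whose only mitochondrially encoded subunit is cytochrome b from mt-Cytb, took 19.8, 19.7 and 19.9% in Col1a1+/- and 19.3, 19.0 and 19.6% in WT. These last groups did not overlap but nearly met, at 19.74% for the lowest Col1a1+/- library and 19.64% for the highest WT library. Their means differed by 0.499 percentage points (exact permutation p = 0.1, the smallest possible). Complex V, from mt-Atp6 and mt-Atp8, took 0.328, 0.640 and 0.111% in Col1a1+/- and 0.347, 0.821 and 0.616% in WT, a small share that varied widely within both groups. Over these 4 shares the adjustment for 4 comparisons leaves no p below 0.05, since none could start below 0.1. They are shares of counts, from which reads that mapped to several places were left out. Exact copies in transcripts of nuclear genes covered 99.5% of the 100-base windows of mt-Co2 and of mt-Atp6. For mt-Co3 it was 99.9% and for mt-Nd4 60.8%. How far this moved the 4 shares was not tested, so they need not be the shares of the mRNAs themselves.

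Per kilobase of gene length, 7 protein genes kept the same order in 6 of 6 libraries. The order was mt-Co1, mt-Cytb, mt-Nd1, mt-Nd2, mt-Nd4, mt-Nd5 and mt-Nd6. Their mean levels over the 6 libraries, in CPM per kb, were 16510 for mt-Co1, 11427 for mt-Cytb, 9432 for mt-Nd1, 5548 for mt-Nd2, 4298 for mt-Nd4, 2812 for mt-Nd5 and 2014 for mt-Nd6. mt-Nd6 is the only protein gene on the minus strand, and 14 of its bases overlap mt-Nd5 on the plus strand. The counting used no strand, so reads of the 2 cannot be told apart by orientation. The rRNA genes followed at 1390 CPM per kb for mt-Rnr2, the large subunit rRNA, and 1214 for mt-Rnr1, the small subunit rRNA, and their order with mt-Tp and mt-Co2 varied between libraries.

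**Figure D2:**
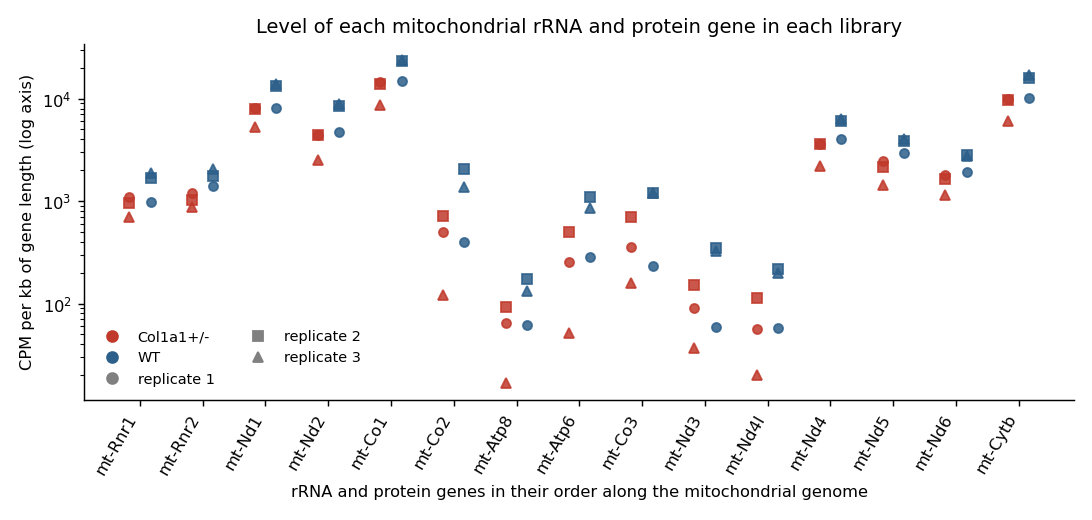
Level of the 15 rRNA and protein genes in each library, in CPM per kb on a log axis, in their order along the mitochondrial genome, with Col1a1+/- in red left of WT in blue and symbols for replicates. The run of 6 genes mt-Co2, mt-Atp8, mt-Atp6, mt-Co3, mt-Nd3 and mt-Nd4l lies low, at means of 90.3 to 857 CPM per kb, and scatters widely within each genotype.

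The other 6 protein genes, mt-Co2, mt-Atp8, mt-Atp6, mt-Co3, mt-Nd3 and mt-Nd4l, lie side by side between mt-Co1 and mt-Nd4 and had low, uneven counts. This group was chosen after its values were seen, and no test was made of it. Mean levels were 857 CPM per kb for mt-Co2, 642 for mt-Co3, 508 for mt-Atp6, 169 for mt-Nd3, 111 for mt-Nd4l and 90.3 for mt-Atp8. Together the 6 genes held 1.49, 2.66 and 0.765% of mitochondrial mRNA counts in Col1a1+/- and 1.17, 3.46 and 2.70% in WT. Col1a1+/- replicate 3 and WT replicate 1 were lowest in their groups, and the groups overlapped. Within a genotype, coefficients of variation of these 6 genes were 62.2 to 83.2% in Col1a1+/- and 45.7 to 66.0% in WT. Those of the 7 other protein genes were 22 to 29.1% in Col1a1+/- and 15.8 to 30.3% in WT.

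Subunits of the same enzyme were counted at very different levels. mt-Co1, mt-Co2 and mt-Co3 encode the 3 core subunits of cytochrome c oxidase, and mt-Co2 counts were 1.53, 2.30 and 0.607% of mt-Co1 counts in Col1a1+/- and 1.19, 3.86 and 2.56% in WT. For mt-Co3 the percentages were 1.24, 2.55 and 0.930 in Col1a1+/- and 0.787, 2.63 and 2.58 in WT. The gene lengths, 1545 bases for mt-Co1, 684 for mt-Co2 and 784 for mt-Co3, differed far less than the counts.

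Of the 6 low genes, 5 are copied nearly whole on chromosome 1. Of all 100-base windows of mt-Co3, 99.9% occurred exactly in a transcript of a gene outside the mitochondrial genome, as did 99.5% for mt-Co2, 99.5% for mt-Atp6, 98.5% for mt-Nd4l and 97.6% for mt-Nd3. The share was 60.8% for mt-Nd4, 30.8% for mt-Co1 and 3.19% for mt-Nd2, and no window matched for mt-Nd1, mt-Nd5, mt-Nd6, mt-Cytb, mt-Rnr1 and mt-Rnr2. mt-Atp8 also had no matching window, although its level was the lowest of the 13. Only annotated transcripts were searched, and the bases of chromosome 1 between Gm10925 and Gm28661, 233 of them, belong to no annotated transcript of these pseudogenes and were not searched. Reads that mapped to several places were left out of the counts, per the file headers. The part of these copies in the low counts was not tested.

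**Figure D3:**
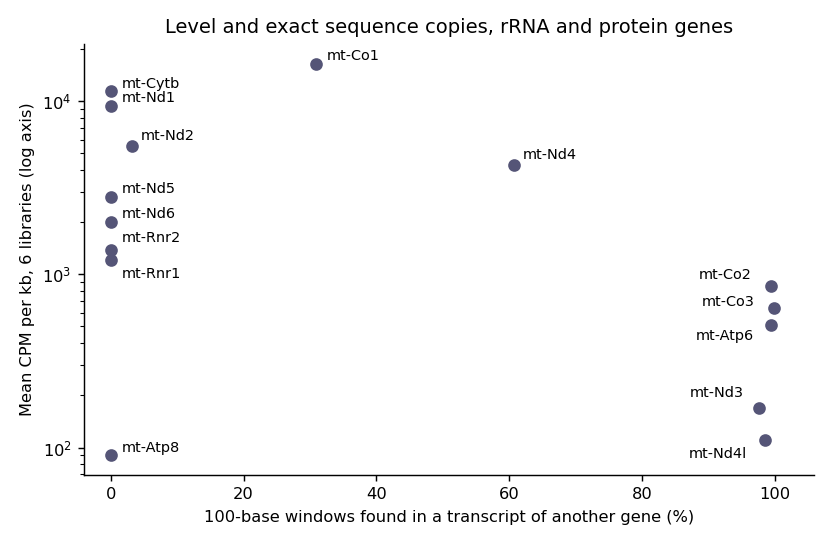
Share of the 100-base windows of each rRNA and protein gene that occur exactly in an annotated transcript of another gene (x axis, percent) against the gene's mean level over 6 libraries (y axis, CPM per kb, log axis), 1 point per gene. Of the 6 low genes, 5 lie above 97% and mt-Atp8 lies at 0, while mt-Nd4 at 60.8% and mt-Co1 at 30.8% are among the high genes.

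The chromosome 1 pseudogenes had counts of their own, well below those of most mitochondrial protein genes, though not of all. Gm28661, the copy of mt-Co2, held 2543, 4508 and 1186 counts in Col1a1+/- and 2207, 3072 and 5777 in WT, where mt-Co2 held 11336, 14083 and 2321 in Col1a1+/- and 8881, 38404 and 27074 in WT. Gm10925, the copy of mt-Atp6, held 2495, 1884 and 1134 counts in Col1a1+/- and 3742, 5878 and 4216 in WT. By edgeR Gm10925 was the only 1 of 6 pseudogenes called lower in Col1a1+/- (adjusted p = 0.0481, log2 fold change -1.39, SE 0.29), where 2.91% of all genes were called lower. It was not called when any 1 library was left out (adjusted p = 0.0563 to 0.135). Few genes of any kind were called without Col1a1+/- replicate 1 (0), Col1a1+/- replicate 3 (44), WT replicate 2 (8) or WT replicate 3 (0). All 6 pseudogenes had log2 fold changes below 0. DESeq2 called 5 of them lower (background 7.92%) and limma-voom called 1. Without WT replicate 1, edgeR called 2 of them lower (background 6.15%). For mt-Atp6, which was not called, the log2 fold change was -1.48 (SE 0.85, adjusted p = 0.367), and the difference between mt-Atp6 and Gm10925 was not tested. Gm28439, the copy of the first part of mt-Nd4, held 966, 848 and 463 counts in Col1a1+/- and 1153, 1509 and 1870 in WT. The 6 pseudogenes followed as a list (the 5 named here other than Gm10222, and Gm29216, which matches part of mt-Co1) held 4.94, 6.33 and 4.52 counts per 1000 mitochondrial mRNA counts in Col1a1+/- and 5.44, 5.73 and 6.76 in WT, with overlap. Since near-identical copies share reads, the counts of both members of each pair are uncertain.

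Transfer RNAs were scarcely counted, apart from 1 gene. All 22 tRNA genes together held 2013, 1782 and 1117 counts in Col1a1+/- and 2020, 2807 and 2731 in WT. mt-Tp, the proline tRNA gene, held 1841, 1635 and 1054 of these in Col1a1+/- and 1841, 2572 and 2480 in WT, or 91.6% of all tRNA counts. It is the last gene row of the genome and lies on the minus strand at MT:15356-15422, followed by the control region, where transcription starts. Next came mt-Ts1, a serine tRNA gene that lies on the minus strand at MT:6870-6938 and overlaps the end of mt-Co1 by 3 bases. It held 77, 77 and 15 counts in Col1a1+/- and 79, 114 and 107 in WT. Both are shown 5′ to 3′ with the anticodon in capitals.
mt-Tp: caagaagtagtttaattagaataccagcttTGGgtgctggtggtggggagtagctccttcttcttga
mt-Ts1: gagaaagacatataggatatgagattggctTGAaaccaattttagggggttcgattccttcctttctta

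The counted tRNAs were mostly those read from the minus strand. The 8 tRNA genes annotated there held 12353 of 12470 tRNA counts (99.1%), or 930 counts without mt-Tp, and the 14 plus-strand tRNA genes held 117. Opposite a minus-strand tRNA gene lie spacer sequences of the plus-strand precursor. Since strand was not used in counting, reads of that precursor and of the tRNA cannot be told apart. mt-Td, mt-Tk, mt-Ts2 and mt-Tt were at 0 in all 6 libraries, below a limit of 3 counts, which is 0.0899 to 0.109 CPM per library and covers counting error only.

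The genotype test was run on 18514 genes with enough counts, by edgeR's quasi-likelihood test. The filter passed 21 of 37 mitochondrial genes: all 13 protein genes, both rRNA genes and 6 tRNA genes (mt-Tl1, mt-Tn, mt-Tc, mt-Ts1, mt-Te and mt-Tp). The 16 tRNA genes not tested held 0 to 15 counts each over the 6 libraries, 64 in all. At an adjusted p under 0.05, 0 of 21 were called, against 4.34% of all genes tested (2.91% called lower). At an unadjusted p under 0.05 there were 11 of 21, all lower, beside 13.2% lower among all genes. DESeq2 called 10 of 21 lower (mt-Rnr1, mt-Rnr2, mt-Tp and the 7 abundant protein genes), with 7.92% of all genes called lower, and limma-voom called 0 of 21. In edgeR with library totals in place of TMM 1 was called lower, mt-Rnr2 (background 3.99%), with no filter on low counts 3 (2.75%), and with libraries scaled on osteocyte markers 7 (6.05%). The log2 fold changes of all 21 were below 0, with a median of -0.80 and a range of -1.51 to -0.47, where 50.9% of all genes were below 0 and their median was -0.01. In 9 of 21 genes all Col1a1+/- libraries lay below all WT libraries, against 14.5% of all genes.

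The number of calls by edgeR depended on WT replicate 1. Without it edgeR called 9 of 21 genes lower, with 6.15% of all genes called lower, and leaving out any other library gave 0 of 21. Of these 5 fits only that without Col1a1+/- replicate 2 made many calls at all, 930 of 19222 genes. Over all genes 0 were called without Col1a1+/- replicate 1 or WT replicate 3, 8 without WT replicate 2 and 44 without Col1a1+/- replicate 3, so 0 of 21 says nothing about the mitochondrial genes there. The 9 called without WT replicate 1 were mt-Rnr1, mt-Rnr2, mt-Nd1, mt-Nd2, mt-Nd4, mt-Nd5, mt-Nd6, mt-Cytb and mt-Tp. That library had the lowest mitochondrial share of the WT libraries and the highest neutrophil share of all 6, and the part of neutrophil RNA in the result was not tested.

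The 7 abundant protein genes had log2 fold changes between -0.95 and -0.72, and none of them was called. mt-Co1 stood at 22268, 21374 and 13498 CPM in Col1a1+/- and 23173, 36058 and 36680 CPM in WT (log2 fold change -0.75, SE 0.31, adjusted p = 0.198). Col1a1+/- replicates 1 and 2 lay just under WT replicate 1, and the groups did not overlap. mt-Cytb stood at 11283, 11003 and 6904 CPM in Col1a1+/- and 11615, 18234 and 19397 CPM in WT (log2 fold change -0.75, SE 0.30, adjusted p = 0.176). mt-Nd1, a membrane subunit of complex I, stood at 7680, 7592 and 5053 CPM in Col1a1+/- and 7777, 12667 and 13387 CPM in WT, with the smallest gap between groups of these 3 genes in CPM.

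Of the other complex I genes in this set, mt-Nd2 had the lowest log2 fold change, -0.95 (SE 0.31, adjusted p = 0.113), from 4610, 4555 and 2603 CPM in Col1a1+/- against 4949, 8697 and 9141 CPM in WT. mt-Nd5 had the lowest adjusted p of the protein genes, 0.0855, with a log2 fold change of -0.85 (SE 0.25). It stood at 4440, 3917 and 2642 CPM in Col1a1+/- and 5410, 6996 and 7369 CPM in WT, and the groups were further apart than for mt-Nd1. For mt-Nd4 the log2 fold change was -0.80 (SE 0.28, adjusted p = 0.125). For mt-Nd6 it was -0.72 (SE 0.22, adjusted p = 0.0972). The groups did not overlap for any of the 7.

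Neither rRNA gene was called. mt-Rnr2 stood at 1892, 1621 and 1386 CPM in Col1a1+/- and 2231, 2781 and 3287 CPM in WT, without overlap, and its adjusted p of 0.0706 was the lowest of the 21 genes (log2 fold change -0.76, SE 0.21). mt-Rnr1 stood at 1052, 914 and 665 CPM in Col1a1+/- and 926, 1590 and 1809 CPM in WT, where WT replicate 1 lay below Col1a1+/- replicate 1 (log2 fold change -0.72, SE 0.27, adjusted p = 0.159). The ratio of mt-Rnr1 to mt-Rnr2 counts was 0.556, 0.564 and 0.479 in Col1a1+/- and 0.415, 0.572 and 0.550 in WT, with WT replicate 1 the lowest (exact permutation p = 0.8). rRNAs have only very short tails as a rule, and how far poly-A selection kept them cannot be read from these tables.

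The 6 low genes had the largest fold changes of the protein genes and the largest errors. Their log2 fold changes ran from -1.51 to -1.08 with SE of 0.64 to 0.85, adjusted p lay between 0.328 and 0.442, and the groups overlapped for each of the 6. mt-Co2 had the lowest, -1.51 (SE 0.80), from 340, 492 and 82.0 CPM in Col1a1+/- against 275, 1391 and 938 CPM in WT. mt-Atp6 stood at 174, 338 and 35.1 CPM in Col1a1+/- and 196, 751 and 581 CPM in WT, a difference between lowest and highest library of 21.4 times. In mt-Co3, WT replicate 1 at 182 CPM lay below both Col1a1+/- replicate 1 at 276 and replicate 2 at 544 CPM. Among tRNAs, mt-Tp stood at 55.2, 57.1 and 37.2 CPM in Col1a1+/- and 57.1, 93.2 and 85.9 CPM in WT (log2 fold change -0.66, SE 0.22, adjusted p = 0.131). The other 5 tested tRNAs stayed under 5 CPM, with log2 fold changes of -0.47 for mt-Tl1 to -1.01 for mt-Te.

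**Figure D4:**
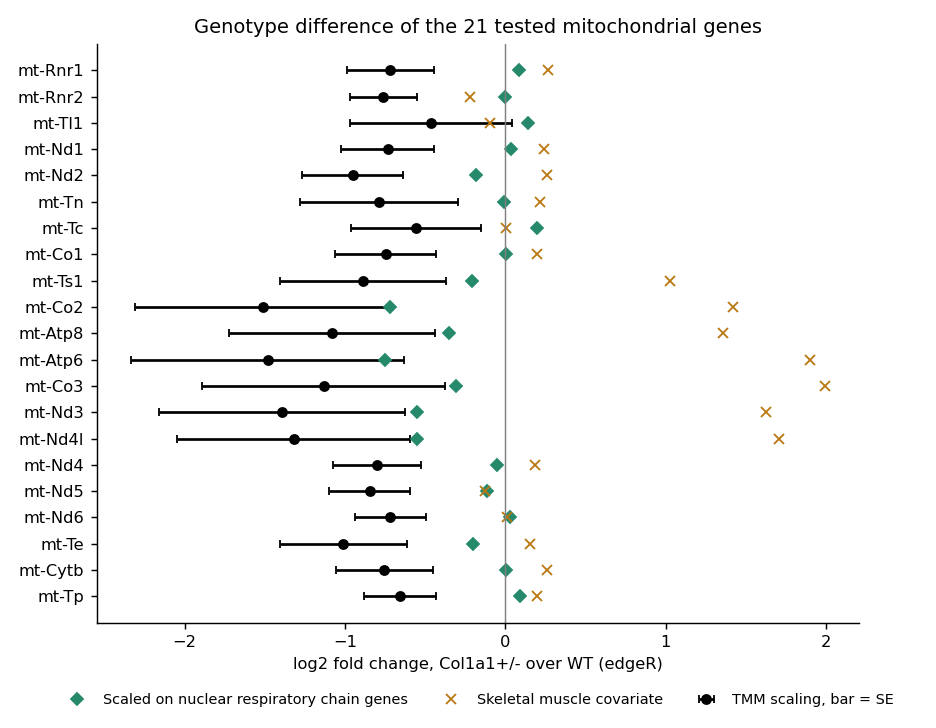
Log2 fold change, Col1a1+/- over WT, of the 21 tested mitochondrial genes in genome order from top to bottom. Black points with SE bars are from TMM scaling and lie between -1.51 and -0.47, green diamonds are from libraries scaled on nuclear respiratory chain genes, and ochre crosses are from a fit with the skeletal muscle score as a covariate, where 18 of 21 lie above 0.

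Nuclear genes of the respiratory complexes, complex II without mitochondrial genes among them, had medians near those of the mitochondrial genes. None of these nuclear genes was called by edgeR. Of 36 nuclear complex I genes tested, all had log2 fold changes below 0 with a median of -0.77, and 0 were called. The lowest p of the list was that of Ndufa9, an accessory subunit, at 76.3, 94.1 and 61.5 CPM in Col1a1+/- and 101, 152 and 169 CPM in WT (log2 fold change -0.86, adjusted p = 0.0637). The medians were -0.77 for 4 genes of complex II, -0.84 for 9 of complex III, -0.81 for 15 of complex IV and -0.74 for 16 of complex V, with 0 called in each. At an unadjusted p under 0.05, 27 of 36, 4 of 4, 8 of 9, 10 of 15 and 9 of 16 genes were lower, in the order of complexes I to V, against 13.2% lower and 22.8% in either direction over all genes. In the same order DESeq2 called 22, 4, 6, 5 and 6 lower (background 7.92%), limma-voom called 1 gene, in complex III, and edgeR without WT replicate 1 called 31, 4, 9, 7 and 14 (background 6.15%). Leaving out any other library, edgeR called at most 2 genes of a complex. Of these fits, all but that without Col1a1+/- replicate 2 called only 0 to 44 genes in all. The log2 fold changes above 0 were 3 in complex IV and 1 in complex V, Atpif1, an inhibitor of ATP synthase, at 0.17 (adjusted p = 0.530). Those of complex IV included Cox4i2, with an unadjusted p under 0.05, an oxygen-regulated isoform known from lung, at 10.2, 7.93 and 6.60 CPM in Col1a1+/- and 4.25, 6.09 and 5.75 CPM in WT.

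Mitochondrial and nuclear mRNAs of the chain did not differ in their ratio beyond the spread of the libraries. There were 6.74, 5.11 and 4.81 mitochondrial mRNA counts per count of nuclear complexes I, III, IV and V in Col1a1+/- and 6.29, 5.69 and 5.06 in WT. The difference was -0.124 (exact permutation p = 0.9). It changed sign without Col1a1+/- replicate 2, Col1a1+/- replicate 3 or WT replicate 1, to 0.0995, 0.248 and 0.180. With libraries scaled on these nuclear genes, the median log2 fold change of the 21 genes was -0.05 and 13 were below 0. On that scale 0 of 21 were called, against 5.54% of all genes in either direction, and the median of all genes moved to 0.69.

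Set against muscle markers, mitochondrial mRNAs were higher in every Col1a1+/- library than in any WT library. There were 3.01, 1.55 and 2.04 mitochondrial mRNA counts per muscle marker count in Col1a1+/- and 1.16, 1.53 and 1.21 in WT, without overlap, though the lowest Col1a1+/- and the highest WT value nearly met (exact permutation p = 0.1, the smallest possible). The mitochondrial share was 0.623 times as large in Col1a1+/- as in WT, and the muscle share 0.39 times. That muscle RNA differs between the genotypes was known from earlier results of these data when this ratio was chosen. Its direction and p are therefore a description and not an independent test. With the muscle score as a covariate the median log2 fold change of the 21 genes was 0.24, 3 were below 0 and none was called, in a fit that called 1 gene of 18514. The muscle score itself separates the genotypes, so in this fit muscle RNA and genotype cannot be told apart.

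The nuclear genes that serve the mitochondrial genome were called about as often as all genes (4.34%, or 2.91% lower). Of 20 genes of mitochondrial transcription and replication, 1 was called lower, Tefm, the elongation factor of the mitochondrial RNA polymerase, with 5.12, 5.59 and 5.51 CPM in Col1a1+/- and 8.21, 8.62 and 9.70 CPM in WT (log2 fold change -0.71, adjusted p = 0.0496). The median of that list was -0.12, and 4 of 20 had an unadjusted p under 0.05, all lower, against 13.2% lower among all genes. Of 31 RNA processing and decay genes, 1 was called lower, Lrpprc, which stabilises mitochondrial mRNAs, at 32.4, 41.0 and 33.6 CPM in Col1a1+/- and 46.2, 53.8 and 62.1 CPM in WT (log2 fold change -0.60, adjusted p = 0.0496). The median was -0.17, and 8 of 31 had an unadjusted p under 0.05, all lower. This list took 0.0809 to 0.0825% of counts in Col1a1+/- and 0.0864 to 0.0900% in WT, without overlap. Among 19 mitochondrial aminoacyl-tRNA synthetases, which charge the tRNAs, 0 were called by edgeR, DESeq2 or limma-voom and the median was -0.16. At an unadjusted p under 0.05 there were 4, of which 3 were lower, against 22.8% in either direction among all genes. The shares of counts of the synthetases and of the transcription and replication genes overlapped between groups. Tefm was still called only without WT replicate 1, and Lrpprc only without that library or Col1a1+/- replicate 2. Few genes of any kind were called without Col1a1+/- replicate 1 (0), Col1a1+/- replicate 3 (44), WT replicate 2 (8) or WT replicate 3 (0).

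Regulators of mitochondrial biogenesis gave 3 calls of 12, all lower, where 2.91% of all genes were called lower. The 3 were also called without Col1a1+/- replicate 2 or WT replicate 1, and were lost without any 1 of the other 4 libraries (adjusted p = 0.0633 to 0.147). Those 4 fits called few genes of any kind. In all there were 0 without Col1a1+/- replicate 1 or WT replicate 3, 8 without WT replicate 2 and 44 without Col1a1+/- replicate 3. A call lost there says little about these genes. Ppargc1a, the coactivator PGC-1 alpha, stood at 4.08, 4.30 and 2.47 CPM in Col1a1+/- and 9.64, 9.20 and 14 CPM in WT (log2 fold change -1.60, adjusted p = 0.0244). Perm1, a regulator of oxidative capacity in muscle, stood at 31.6, 42.9 and 27.7 CPM in Col1a1+/- and 65.7, 97.2 and 129 CPM in WT (log2 fold change -1.52, adjusted p = 0.0336). The third was Esrra, a nuclear receptor and partner of PGC-1 alpha, named after its values were seen, at 52.5, 56.5 and 49.1 CPM in Col1a1+/- and 69.2, 88.1 and 105 CPM in WT (log2 fold change -0.73, adjusted p = 0.0378). Pprc1, a related coactivator, had a log2 fold change of 0.34 (adjusted p = 0.102), and the median of the list was -0.13. Skeletal muscle also expresses the called genes, and the part of muscle RNA in these calls was not tested for each gene.

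Within the mitochondrial mRNAs, no gene's share was called different between genotypes, on a scale where 19.2% of all genes were called in either direction. With libraries scaled on the mitochondrial mRNA total, the lowest adjusted p of the 21 was 0.0896, for mt-Co2 (log2 fold change -0.74, SE 0.35), and that of mt-Atp6 was 0.0900 (-0.74, SE 0.35). By edgeR 2 of 21 had an unadjusted p under 0.05 on this scale, against 8361 of 18514 genes in either direction. The median log2 fold change of all genes moved to 0.78 on it. mt-Co1 made up 36.8 ± 0.238% of mitochondrial counts in Col1a1+/- and 35.9 ± 0.644% in WT, and mt-Nd2 7.53 ± 0.383% and 8.43 ± 0.537% (SD, n = 3 each).

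Over the 6 libraries, the nuclear genes whose log2 CPM was most like that of the summed 13 protein genes were Pkig (Pearson r 0.995), Mrpl13 (0.993), Wdr55 (0.993), Gm28439 (0.992) and Mafk (0.992), of 10179 genes compared. Mrpl13 encodes a protein of the mitochondrial ribosome, and Gm28439 is the chromosome 1 copy of part of mt-Nd4. With 6 points that also differ by genotype and tissue content, these values describe likeness only.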

How the data were processed

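The authors deposited raw counts per gene, 1 table for each library, none of them normalized, per the file headers. Reads were counted with featureCounts 2.0.3 over exons of Ensembl release 107 on GRCm39, without strand, with each mate counted as 1 read and leaving out reads with several map positions or over several genes, per the file headers. Before that the reads had gone through Trimmomatic 0.39, HISAT2 2.2.1 and SAMtools 1.20, per the submitters' processing notes.

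Genes were kept by filterByExpr and scaled by TMM, and Col1a1+/- was set against WT in edgeR 4.0.16, run in R 4.3.3 (robust quasi-likelihood test, two-sided, Benjamini-Hochberg adjusted p under 0.05 over 18514 genes). The SE is the absolute log2 fold change over the square root of F. Single values were compared by exact two-sided permutation tests. Alternatives used DESeq2 1.42.0 and limma 3.58.1. Symbols came from GENCODE M21 by identifier (52073 of 56748), and sequences from its transcripts. Exact windows were searched on both strands in 141730 transcripts of other genes. All 37 members are accounted for; those tested are named, with up to 2 genes by p in each direction of each nuclear list, and 5 by likeness at a mean of at least 10 CPM. The members, lists and alternatives were chosen with earlier results of these data known.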

Additional observations from a re-analysis of the deposited data

How the results depend on the processing

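The number of mitochondrial genes called was 0 of 21, and it was 1 with library totals without TMM, 7 with libraries scaled on osteocyte markers, 3 of 33 tested with no filter on low counts, 10 with DESeq2, and 0 to 9 when 1 library was left out; it stayed at 0 with DESeq2 size factors, limma-voom, halved counts (19 tested), both covariates and scaling on nuclear respiratory chain genes or mitochondrial mRNA. Scaling on osteocyte markers moved the median of all genes to -0.67. Leaving out 1 library, the difference in mitochondrial share (Col1a1+/- minus WT) ran from -3.98 to -2.50 percentage points, that of rRNA per 1000 mRNA counts from -1.35 to 5.54, that of tRNA per 1000 from 0.0537 to 0.108, that of the mitochondrial to nuclear ratio from -0.718 to 0.248 and that of the mitochondrial to muscle ratio from 0.499 to 1.23. Without mt-Tp the tRNA difference was -0.00743. With the muscle covariate, log2 fold changes changed sign for mt-Rnr1 0.26, mt-Nd1 0.24, mt-Nd2 0.26, mt-Tn 0.22, mt-Tc 0.0049, mt-Co1 0.20, mt-Ts1 1.02, mt-Co2 1.42, mt-Atp8 1.36, mt-Atp6 1.90, mt-Co3 1.99, mt-Nd3 1.62, mt-Nd4l 1.71, mt-Nd4 0.19, mt-Nd6 0.0079, mt-Te 0.15, mt-Cytb 0.26 and mt-Tp 0.20, all with adjusted p above 0.77. Scaled on nuclear respiratory chain genes they changed sign for mt-Rnr1 0.0826, mt-Tl1 0.14, mt-Nd1 0.0355, mt-Tc 0.19, mt-Co1 0.0062, mt-Nd6 0.0313, mt-Cytb 0.0055 and mt-Tp 0.0915; scaled on mitochondrial mRNA, for mt-Rnr1 0.10, mt-Rnr2 0.0416, mt-Tl1 0.19, mt-Nd1 0.0705, mt-Tc 0.21, mt-Co1 0.0390, mt-Nd6 0.0700, mt-Cytb 0.0368 and mt-Tp 0.14; and with the erythroid and neutrophil covariate for mt-Tl1 0.10. Scaling on mitochondrial mRNA divides by the sum of the 13 protein genes, so a change they share is removed by the scale itself. Scaling on nuclear respiratory chain genes likewise removes a change shared with those genes. Otherwise the cause of the sign changes was not tested. Same-numbered libraries did not pair (correlations of deviations 0.107, 0.0413 and -0.122): with the replicate block 0 of 21 were called (126 genes in all against 803), and the share difference of -3.21 had an exact sign-flip p of 0.25, the smallest 3 pairs can give. Alternatives without the 6 low genes, with the 6 pseudogenes or scaled without mitochondrial genes were chosen after seeing the data and changed no direction or call.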
